A study of Schizosaccharomyces pombe with 2 samples.

Results

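Of 222 added introns outside the authors' annotation in fission yeast (Schizosaccharomyces pombe), 35 were classed as coding or as changing a gene model. They were chosen by the class the authors gave each intron, without regard to reads. Of the 35, 19 were classed as coding and frameshifting, 6 as coding and in-frame, 6 as a change of the 5′ end of a gene model and 4 as a change of its 3′ end. Each is listed under a different gene name, and 33 of the 35 had a coding gene on their strand at their position. The coding and model change classes together are called the coding-region introns here.

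All values come from 1 library. Total RNA of strain 972 h- with dbr1 deleted was pooled from 41 growth and treatment conditions before any separation. Circular RNA was then cut from a 2-dimensional acrylamide gel with 15% acrylamide in the second dimension (the short run) and sequenced. A long run with 1 further library was not used here, since the tables carry the short run's name. The deletion applies to every cell measured, so no wild-type value exists for comparison, and no condition or replicate can be told apart. Intervals for reads are exact Poisson 95% intervals and cover counting error only. The added table starts at 50 reads and holds 895323 reads. The annotated table starts at 5 reads and holds 9296300 reads over 1292 introns. These sums cover listed introns and are not library depths.

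Splicing leaves each intron as a lariat, a circle closed at an adenosine near the intron's 3′ end, the branch point. The debranching enzyme encoded by dbr1 normally opens that circle, after which the intron is degraded, and cells without it accumulate lariats. An intron inside a coding exon means that the same bases can be kept as codons or removed. If a number of bases not divisible by 3 is removed, the reading frame after the junction changes. An intron that holds a start or stop codon moves the end of the predicted protein.

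The in-frame class and the exceptions to its definition are shown first, because the outcome for the protein depends on these bases. Sequences were read 5′ to 3′ on the intron's strand at the files' positions in NCBI assembly ASM294v3. The files name no build; in this assembly every one of the 1292 annotated introns opens with GT and closes with AG at its listed position. Capitals mark the first GT, the last AG and, where present in the last 40 nt, the branch motif nearest to the end. The branch motifs searched were CTAAC, its variant CTAAT, the form CTGAC and the form CTGAT. The introns are listed for SPBP35G2.04c (chr2:969695-969778, minus strand), cys11 (chr2:848818-848967, plus strand), ero12 (chr3:1760788-1760934, minus strand), pcd1 (SPAC6G9.05; chr1:3253735-3253848, plus strand), hrq1 (SPAC23A1.19c; chr1:4116870-4116992, minus strand), ssr4 (chr2:2004474-2004602, plus strand) and imp2 (chr2:3349260-3349358, plus strand). The authors put the first 6 in the in-frame class and imp2 in the frameshift class, although its 99 nt are divisible by 3.
SPBP35G2.04c: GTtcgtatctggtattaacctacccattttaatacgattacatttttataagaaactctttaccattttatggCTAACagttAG
cys11: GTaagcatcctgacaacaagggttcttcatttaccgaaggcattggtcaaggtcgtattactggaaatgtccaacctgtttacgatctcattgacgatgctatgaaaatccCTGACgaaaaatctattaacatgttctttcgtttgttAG
ero12: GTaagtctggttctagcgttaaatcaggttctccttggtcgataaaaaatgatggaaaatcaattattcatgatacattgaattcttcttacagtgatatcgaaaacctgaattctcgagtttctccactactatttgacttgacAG
pcd1: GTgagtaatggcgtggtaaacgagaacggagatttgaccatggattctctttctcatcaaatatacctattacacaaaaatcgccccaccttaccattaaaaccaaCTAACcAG
hrq1: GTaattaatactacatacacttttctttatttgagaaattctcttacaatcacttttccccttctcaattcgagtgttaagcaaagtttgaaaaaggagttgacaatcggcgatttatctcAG
ssr4: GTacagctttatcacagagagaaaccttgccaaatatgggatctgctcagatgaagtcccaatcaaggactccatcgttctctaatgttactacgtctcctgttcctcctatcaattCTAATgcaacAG
imp2: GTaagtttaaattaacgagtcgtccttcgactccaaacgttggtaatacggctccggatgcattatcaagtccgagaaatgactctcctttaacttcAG

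For the model changes, the last 30 bases of the 2 introns with most reads are shown with the same capitals, at chr3:1336053-1336082 on the minus strand for gdh2 and at chr1:3536701-3536730 on the plus strand for deb1. Both end inside the annotated coding sequence. For the coding class, the frameshifting intron with most reads, in SPAC23C4.04c (chr1:1036220-1036308, plus strand), is shown whole.
gdh2: gtatCTAACtaaacagataccgcattatAG
deb1: aatttacatgaacgCTGACcaaaacaatAG
SPAC23C4.04c: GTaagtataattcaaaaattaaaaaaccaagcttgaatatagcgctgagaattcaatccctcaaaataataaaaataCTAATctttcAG

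Reads over the coding-region introns ran from 50 to 2550, with a median of 113 (quartiles 72.5 and 194.5). The other 187 added introns had a median of 117 reads (quartiles 65 and 287.5), and the 1292 annotated introns, listed from 5 reads, one of 438. Annotated introns of 82 to 193 nt with 50 or more reads had a median of 1611 (n = 845). The 35 introns held 9668 reads, and those of gdh2 and deb1 alone held 4584 of these, or 47.4%. The 9668 reads are 1.08% of all reads over added introns. That total is uneven, since 1 of the other added introns held 364089 reads. Without the classes of small nucleolar RNA (snoRNA), the other added introns were 178, with 184342 reads and a median of 113.5. Of the 35, 4 (11.4%) lay above the median of 438 of all annotated introns, those of gdh2, deb1, SPAC23C4.04c and SPBP35G2.04c. Among the other added introns 27 of 187 did (14.4%). Fewer than 100 reads were found for 15 of the 35. The share with 100 or more was 57.1% of the 35 and 57.8% of the other added introns. The lowest of the 35, with 50 reads, was listed for dbp9 and stood at the table's limit. No test was run between these sets, because introns of 1 library are not replicates.

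**Figure D1:**
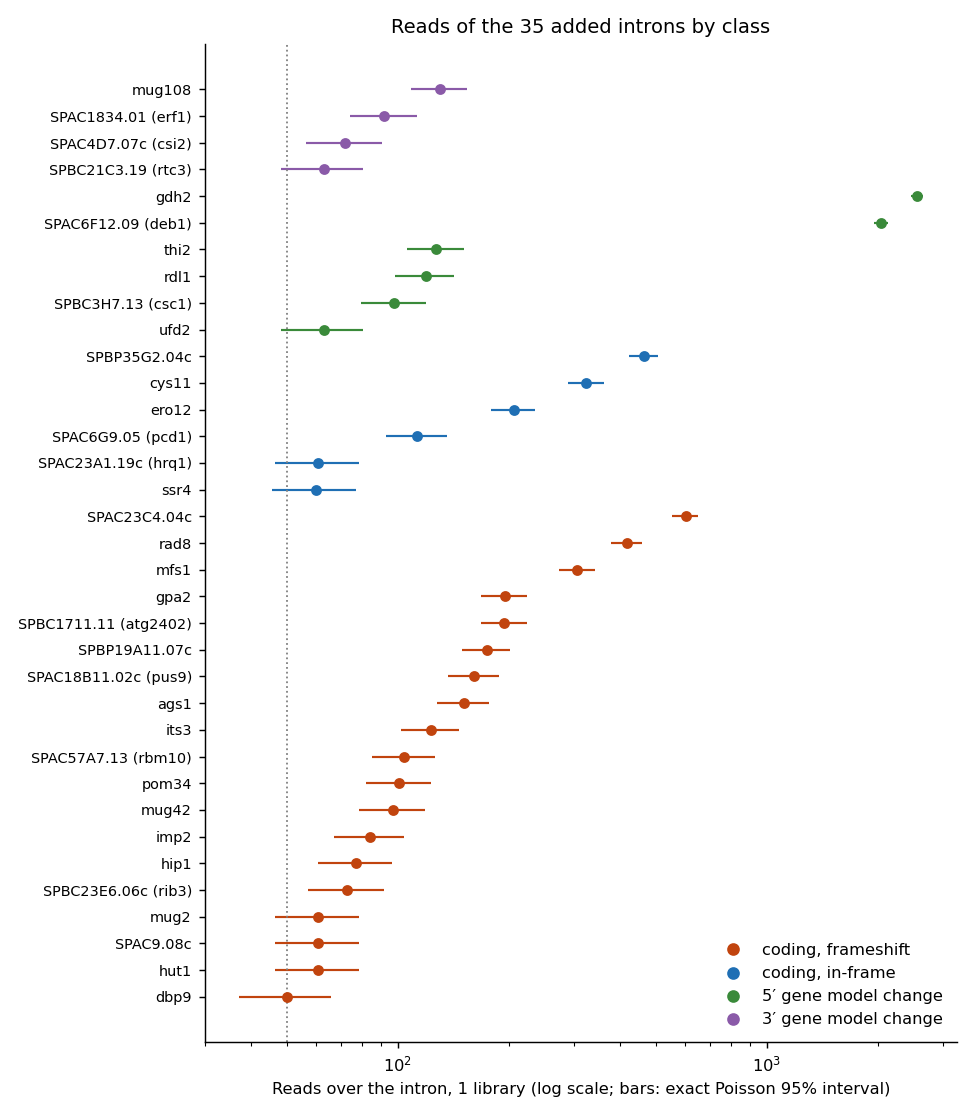
Reads over each of the 35 coding-region introns in the 1 library, on a log axis, grouped and coloured by the authors' class; bars are exact Poisson 95% intervals and the dotted line is the lowest count in the table, 50. Gene names in parentheses are those of the reference where the file gives a systematic name. The introns of gdh2 (2550 reads) and deb1 (2034 reads) stand above all others, of which the highest had 602 reads.

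The 2 highest counts, at gdh2 and deb1, belonged to the 5′ model changes, a class with a median of 123 reads (n = 6). The intron at gdh2, which encodes NAD-dependent glutamate dehydrogenase, had 2550 reads (95% interval 2452 to 2651; chromosome 3, 1336053 to 1336208, minus strand, 156 nt). It began 33 nt before the annotated start of the transcript and took out the first 32 coding bases, the start codon included. The next start codon in the annotated frame is codon 74, after which 93.4% of the protein remains. At thi2, a thiazole biosynthesis gene repressed by thiamine, the intron had 127 reads (106 to 151; chromosome 2, 3940479 to 3940658, plus strand, 180 nt). It likewise began before the annotated transcript, by 47 nt, and removed the first 85 coding bases. There the next start in frame is codon 33, leaving 90.2% of the protein.

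Removal of the start codon was also found at rdl1 and csc1. The intron of rdl1, a gene of a RAD51D-like protein, had 119 reads (98.6 to 142; chromosome 1, 2008833 to 2009025, minus strand, 193 nt) and ended 9 coding bases into the gene. The intron of csc1 (SPBC3H7.13), encoding a protein with a phosphopeptide-binding FHA domain, had 98 reads (79.6 to 119; chromosome 2, 1860952 to 1861101, minus strand, 150 nt). It held 148 coding bases, and the next start codon in frame is codon 146, which leaves 51.8% of the protein. In none of the 5 genes where it could be traced did the 600 bases before the intron hold a start codon open in the frame of the remaining codons.

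The intron with 2034 reads (1947 to 2124; chromosome 1, 3536631 to 3536730, plus strand, 100 nt) is listed under SPAC6F12.09. In the reference that name belongs to rdp1, a gene of an RNA-dependent RNA polymerase at 1324941 to 1329061 of the same chromosome. At the listed position lies deb1 (SPAC1B1.01), whose product the reference names as the DNA-binding transcription factor Deb1/Rdp1, so the gene name Rdp1 is shared. The intron began 4 bases after the first base of the deb1 start codon and lay wholly in coding sequence. Unlike at gdh2, thi2, rdl1 and csc1, the annotated start codon therefore stays. The 100 coding bases removed are not divisible by 3, so that start codon would be followed by a shifted frame. Where the shifted frame ends was not computed. The next start codon in the annotated frame is codon 40, which leaves 91.8% of the protein. Of the 5′ class, the intron listed for ufd2, a ubiquitin ligase gene, could not be placed in its gene. It had 63 reads (48.4 to 80.6; chromosome 1, 2131763 to 2131844, plus strand, 82 nt) and began after 49 nt past the annotated 3′ end of ufd2, on the strand opposite to the GTPase gene rho5 and 50 nt from its last coding base. Without it the median of the model changes was 119 reads (n = 9) in place of 108.5.

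All 4 introns of the 3′ class held the annotated stop codon. At mug108, a gene named for its upregulation in meiosis, the intron had 130 reads (109 to 154; chromosome 1, 5125222 to 5125310, plus strand, 89 nt). It replaced the last 3 of 150 codons with 3 others. The intron of erf1 (SPAC1834.01), the release factor that recognises stop codons in translation, had 92 reads (74.2 to 113; chromosome 1, 4693119 to 4693243, plus strand, 125 nt). Its removal replaced the last 36 of 433 codons with 2 new ones before a stop. At csi2 (SPAC4D7.07c) the intron had 72 reads (56.3 to 90.7; 149 nt) and exchanged 8 of 601 codons for 9. At rtc3 (SPBC21C3.19), a gene of the SBDS family, it had 63 reads (48.4 to 80.6; 166 nt) and exchanged 49 of 106 codons for 21, so only 53.8% of the annotated protein stayed. These outcomes were computed from the reference sequence with the intron taken out, and no protein was measured.

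Among the 25 coding introns, the frameshift class had a median of 104 reads and the in-frame class one of 159.5 reads, with ranges of 50 to 602 and 60 to 464 that overlapped. The highest of the frameshift class was in SPAC23C4.04c, a gene without a named product, with 602 reads (555 to 652). Within that class it was followed by rad8, a chromatin remodeller and ubiquitin ligase gene, with 417 reads (378 to 459; chromosome 1, 174183 to 174361, minus strand, 179 nt) and by the transporter gene mfs1 with 306 reads (273 to 342). Next in the class came gpa2, the G protein alpha subunit of glucose sensing, with 195 reads, and atg2402 (SPBC1711.11), an autophagy gene, with 194. SPBP19A11.07c, a gene without a named product, had 174, pus9 (SPAC18B11.02c), a tRNA pseudouridine synthase gene, had 161, and ags1, the cell wall alpha-glucan synthase gene, had 151. Beyond these, its3, a phosphatidylinositol phosphate kinase gene, had 123 reads. At the other end, hut1, an endoplasmic reticulum sugar nucleotide transporter gene, the steroid reductase gene SPAC9.08c and mug2 had 61 reads each, and dbp9, an RNA helicase gene, had 50.

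A frame could be followed for 24 of the 25 coding introns. For 16 of them the number of coding bases removed was not divisible by 3, and in all 16 the new frame met a stop codon, after 1 to 38 codons (median 9). The bases before the intron then encode between 0.353% (rad8) and 82.2% (gpa2) of the annotated protein, with a median of 40.8%, and under 50% in 12 of the 16. In rad8 the intron began after 4 codons of 1133. In pus9 the stop lay 1 codon past the junction, after 71 of 394 codons, and in atg2402 the new frame ran longest, for 38 codons. The largest of these proteins, Ags1 with 2410 codons, would end after 1487.

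For the other 8, removal left the frame intact, and in 7 of them it ran on to the annotated stop codon, with 28 to 50 codons lost and 85.8% to 96.1% of the protein kept. SPBP19A11.07c is counted among the 7, with the limit given below. In SPBP35G2.04c, with 464 reads (423 to 508), 28 of 249 codons were lost. In cys11, a cysteine synthase gene, with 324 reads (290 to 361), 50 of 351 were lost. The coenzyme A diphosphatase gene pcd1 had 113 reads (93.1 to 136) and lost 38 of 285 codons. The RecQ helicase gene hrq1, with 61 reads (46.7 to 78.4), lost 41 of 1063, and ssr4, a subunit gene of the SWI/SNF and RSC chromatin remodellers, with 60 reads (45.8 to 77.2), lost 43 of 395.

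Several introns departed from the class they were given. In imp2, an F-BAR gene of the cytokinetic ring, the intron of the frameshift class had 84 reads (67.0 to 104) and 99 nt, and its removal took out 33 of 670 codons and kept the frame. In ero12, a gene of an oxidase of disulfide formation, the in-frame intron had 206 reads (179 to 236) and 147 nt. It began after the first base of a codon, and the codon formed at the junction was itself a stop, so the frame closed after 21 of 567 codons. The 12 exon bases on each side join as follows, with no bases marked.
ero12 junction: gccaagttttgtaaaaatctgatt

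The intron of SPBP19A11.07c overlapped annotated intron 8 of that gene by 1 base. The last base of the 40-nt annotated intron, the G of its AG, is also the G of the GT of the added intron of 148 nt. The remaining 147 bases are coding, and deleting them from the annotated coding sequence kept the frame and took out 49 of 688 codons. The class is frameshift, and the listed 148 nt leave a remainder of 1. As listed, removal of intron 8 takes the G of the added intron's GT, so the computed frame does not describe splicing of both from 1 transcript. In the 29 bases across this point (chr2:2868763-2868791, minus strand) the shared base is in capitals. In rib3 (SPBC23E6.06c), a riboflavin synthesis gene, the added intron with 73 reads began 3 nt after annotated intron 2. No other coding-region intron overlapped a reference intron on its strand.
SPBP19A11.07c: ctaattaaataGtacgaaaaatggtttca

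The intron of mfs1 (chr1:4472685-4472772, plus strand, 88 nt) was the only one of the 35 that did not begin with GT as listed. The nearest GT lay 2 bases before the listed start, and counted from there the intron would have 90 nt, which is divisible by 3. The frame change given for mfs1 therefore rests on the listed start. The 30 bases from 12 before the listed start are shown with that GT in capitals. The intron listed for dbp9 lay on the plus strand, whereas dbp9 runs on the minus strand, so it was opposite the coding sequence. It began with GT and ended with AG on the plus strand, and no frame was computed for it. Without the introns of mfs1 and dbp9 the median of the coding introns stayed at 113 reads (n = 23).
mfs1: ccaagttgatGTggagaaattaggagtatg

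**Figure D2:**
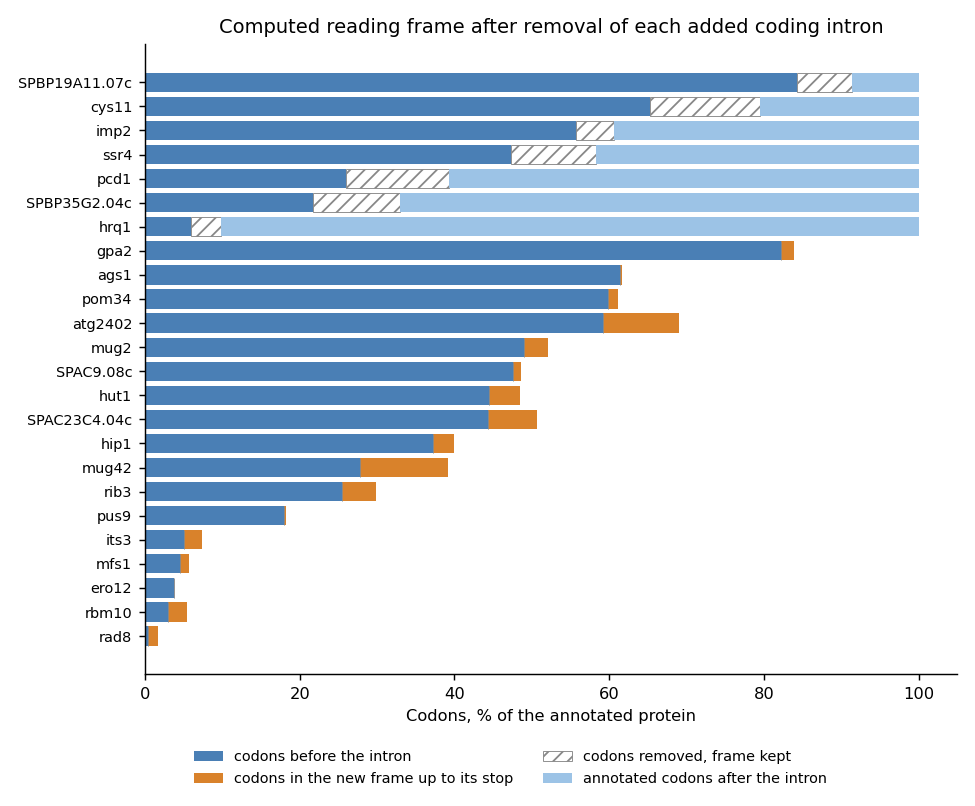
Computed reading frame of 24 coding introns after removal, as a percentage of the codons of the annotated protein. Dark blue is the part before the intron, orange the codons in a new frame up to its first stop, hatched the codons removed with the frame kept, and light blue the annotated codons after the intron. In 7 genes the bar reaches the annotated end, in SPBP19A11.07c only by deletion of its 147 coding bases from the annotated coding sequence. The bar of ero12 stops at the junction after 21 codons.

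Over all 25 coding introns, 7 lengths were divisible by 3, which is 28.0% (Wilson 95% interval 14.3 to 47.6), 11 left a remainder of 1 and 7 a remainder of 2. The model changes had 3 of 10 divisible by 3 (30.0%, 10.8 to 60.3). Beside these stand 32.4% of the annotated introns (418 of 1292) and 42.2% of the other added introns (79 of 187). Of the 24 coding introns with a frame, 8 began between codons, 12 after the first base of a codon and 4 after the next base. Every one of the 35 lengths fell between 82 and 193 nt, with a median of 139 nt, as against 118 nt for annotated introns and 139 nt for the other added introns.

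The reads of annotated introns of the same genes were set beside the added ones. In the reference, 18 of the 33 genes with a coding-region intron on their strand have no intron at all. The other 15 have 33 introns with a median length of 53 nt, of which 24 are under 80 nt and none of those is listed with a read count. All 8 of 80 to 200 nt are listed, and the single longer one, in gpa2, is not. So 8 of the 15 genes had no listed annotated intron to compare with, and a missing intron gives no count. Genes could be compared in 7 cases, 6 of them by the gene name in the files and deb1 by its position.

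In 5 of the 7 genes an annotated intron had more reads than the added one. In hrq1 annotated intron 1 (175 nt) had 922 reads (863 to 983) against 61, a ratio of added to annotated of 0.0662. In imp2, intron 1 (94 nt) had 732 reads (680 to 787) against 84. In cys11, intron 1 (145 nt) had 519 reads (475 to 566) against 324, and in ssr4, intron 2 (149 nt) had 111 reads (91.3 to 134) against 60. SPBP35G2.04c held an annotated intron on each side of the added one. Intron 1 (92 nt) had 220 reads (192 to 251), the added intron 464, and intron 2 (185 nt) 1018 (956 to 1083), so the added intron lay between them.

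The order was the other way in deb1 and its3. In deb1, annotated intron 1 (196 nt) had 79 reads (62.5 to 98.5) against 2034, a ratio of 25.7. In its3, annotated intron 2 (96 nt) had 7 reads (2.81 to 14.4) against 123 (102 to 147), a ratio of 17.6. The median of log10 ratios of added to annotated reads, with the annotated intron of most reads in each gene, was -0.27 (SD 1.00, n = 7 genes). The ratios spread over both directions, and that of its3 rests on 7 annotated reads. Branch reads were listed for annotated introns in 5 of these genes, with 69 reads for intron 1 of cys11 and 24 for intron 1 of SPBP35G2.04c, and 5, 4 and 2 for imp2 intron 1, hrq1 intron 1 and ssr4 intron 2. The leading branch sequence was TACTAAC or TACTAAT in 4 of them and AACTAAC in imp2. Intron 2 of imp2 (65 nt), which has no read count in the table, had 1 branch read, at TTCTAAC.

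**Figure D3:**
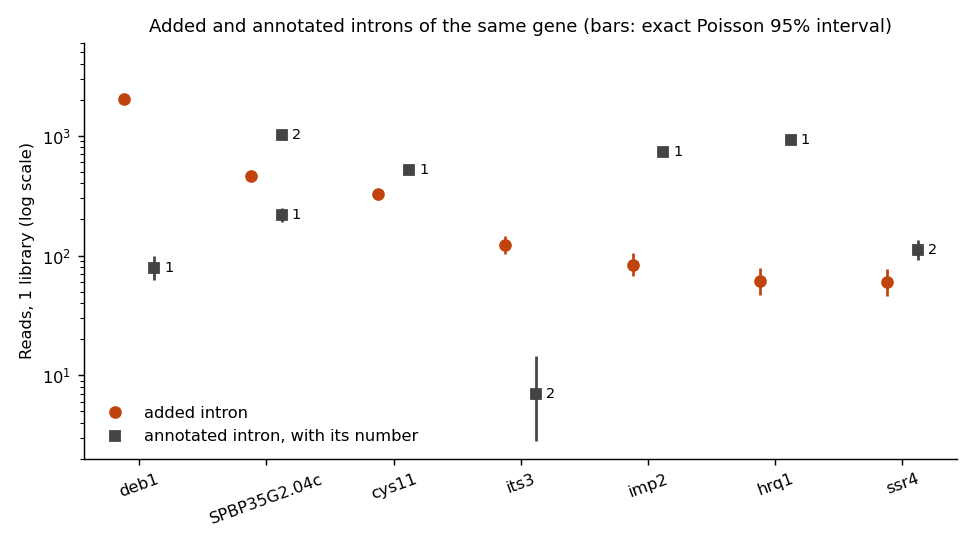
Reads of the added intron (circles) and of the listed annotated introns (squares, with their number in the gene) in the 7 genes that had both, on a log axis; bars are exact Poisson 95% intervals. Annotated introns lie above the added one in hrq1, imp2, cys11 and ssr4, on both sides of it in SPBP35G2.04c, and below it in deb1 and its3.

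Splice signals were read from the reference at the listed ends. Of the 35 introns, 34 began with GT and ended with AG, and 30 began with GTA. The fifth base, G in the yeast consensus, was G in 23 of the 35 (65.7%), in 168 of the 187 other added introns (89.8%) and in 1223 of the 1292 annotated introns (94.7%). GTAAGT opened 5 and GTATGT opened 4 of the 35. The last 3 bases were TAG in 14 (40.0%), against 63.1% of the other added and 72.3% of the annotated introns. CAG ended a further 14 and AAG 7. These differences were not tested.

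Any of the branch motifs named above, on the intron's strand only, lay in the last 40 nt of 28 of the 35 introns (80%, Wilson 95% interval 64.1 to 90.0). It was found in 19 of 25 coding introns (76.0%) and in 9 of 10 model changes (90.0%), as against 64.2% of the other added and 81.6% of the annotated introns. The order depended on the motifs counted: CTAAC alone stood in the last 40 nt of 25.7% of the 35, 39.0% of the other added and 56.3% of the annotated introns. The 40 nt after the intron were searched for all the branch motifs again, not for CTAAC alone. Any of them stood there beside 4 of the 35 (11.4%), 8.56% of the other added and 12.2% of the annotated introns. The motif nearest to the end was CTAAC in 9 introns, the variant CTAAT in 9, the form CTGAC in 9 and the form CTGAT in 1, with a median of 10 nt from the motif to the intron end. The 7 without a motif were those of csi2, rbm10 (SPAC57A7.13), imp2, rib3, dbp9, ero12 and hrq1. A match is a string of letters and not a mapped branch point, since branch reads were not listed for added introns.

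**Figure D4:**
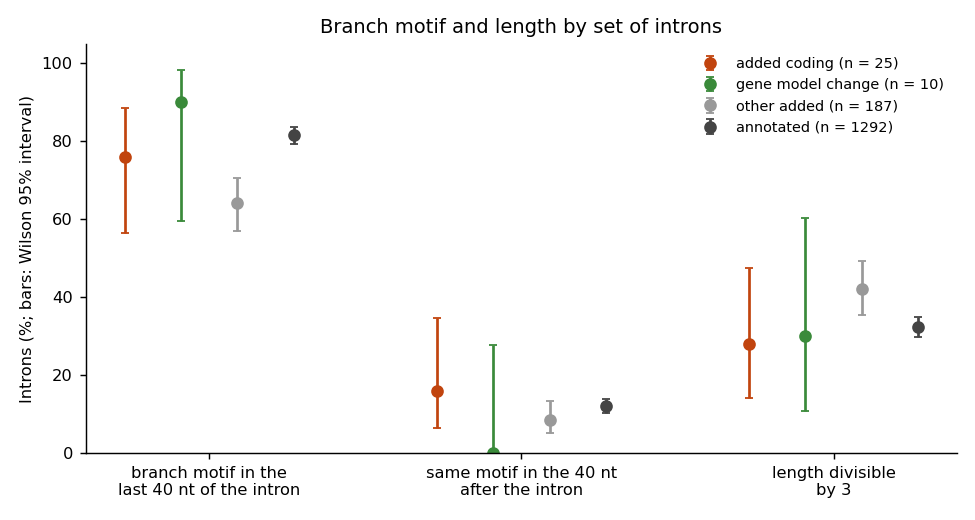
Introns (%) with any branch motif in their last 40 nt, any in the 40 nt after them, and a length divisible by 3. Sets are the 25 added coding introns, the 10 model changes, the 187 other added and the 1292 annotated introns. Bars are Wilson 95% intervals. Motif shares inside the intron lie between 64.2% and 90.0% and those after it between 0 and 16%.

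Base composition of these introns was set beside that of the 50 nt of genome on each side. Those flanks are not exon throughout. At gdh2 and thi2 they lie partly before the annotated transcript, and at SPBP19A11.07c and rib3 they hold an annotated intron. The median G and C content was 37.8% in the 35 introns (range 24.2 to 47.0) and 38.0% in the 50 nt on each side. For the annotated introns the medians were 30.2% inside and 39.0% outside, and for the other added introns 32.9% and 32.0%. The content was lower inside than outside in 18 of the 35 (51.4%) and in 1158 of the 1292 annotated introns (89.6%). Coding introns alone had a median of 38.6% and model changes of 33.7%. In the reference, 23 of the coding introns lie wholly in 1 coding exon, and whether this relates to their composition was not tested.

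None of the 35 equalled an intron of the reference annotation or shared an end with one, whereas 3 of the 187 other added introns and 1259 of the annotated introns were equal to a reference intron. The reference thus keeps the bases of the 23 coding introns that lie whole in 1 coding exon as codons.

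By the product names of the reference, 9 of the 35 genes belong to metabolism and transport, with reads of 61 to 2550 (median 127). A further 5 belong to gene expression (50 to 2034, median 104) and 5 to DNA repair and chromatin (60 to 417, median 77). Signalling and traffic took 4 genes (101 to 195, median 158.5), cell cycle and meiosis 4 (61 to 130, median 90.5) and protein folding and turnover 2, while 6 had no named role (63 to 602, median 136). The genes of DNA repair and chromatin not yet named include hip1, a histone chaperone gene, with 77 reads, and the gene expression group includes rbm10, an RNA-binding protein gene, with 104. The nucleoporin gene pom34 had 101 reads and mug42 had 97. The ranges of the groups overlap. Only these 35 genes were grouped, so no share over other genes stands beside the counts. The products of mug108, mug42 and mug2 give only the gene name, which placed them in cell cycle and meiosis. Listed names were used for ufd2 (protein folding and turnover) and dbp9 (gene expression, its 50 reads), although neither intron lay in that gene on its strand.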

How the data were processed

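For annotated and for added introns the authors deposited raw counts of reads, 1 whole number per intron, with no normalization, and a text column of branch sequences, distances and branch read counts, per the file headers. Bowtie 0.12.3 and SAMtools are named in the submitters' processing notes. For their roles, the peak caller, the annotation, the genome build and strand handling, nothing is stated: they are marked "not given in the sources used here". Table names alone tie the values to the short run. From the annotated table, 22 repeated lines were dropped, leaving 1292 of 1314. Gene names were matched without regard to case to the RefSeq gene table of ASM294v3, and 35 of 35 matched. Reading frames were computed by removing the listed bases from the annotated coding sequence, with other annotated introns removed. Splicing and frame functions were tested on simulated sequences. There is 1 library, so no test was run: shares carry Wilson and reads exact Poisson 95% intervals. Alternatives changed read minimum, length range, gene matching, comparison set and motif window. The text names, in each class, either every intron or the 8 highest and 4 lowest, all in-frame introns and those with listed annotated introns in the gene; others were named after their values were seen. The members and lists were chosen with earlier results of these data known, and 2 of the role groups were added after the genes were seen. Python 3.11.15, numpy 2.4.6, pandas 2.3.3, scipy 1.17.1 and matplotlib 3.10.9 were used.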

Additional observations from a re-analysis of the deposited data

How the results depend on the processing

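Alternative settings gave 31 values, 4 of them from settings chosen after the data were seen. Of the 31, 29 stayed within the interval of the main value, within 1 SD for the log10 ratio or, for counts and ratios of medians, within 1.5 times. With 100 or more reads required, the median of the coding introns was 194 in place of 113, since lower counts were left out. The median over the coding-region introns was 0.966 times that of the other added introns; against annotated introns of 82 to 193 nt with 50 or more reads it was 0.0701 times, because the comparison set changed. With CTAAC alone as the branch motif, 25.7% of the 35 introns held it in the last 40 nt, against 39.0% of the other added and 56.3% of the annotated introns, since only 1 of the 4 motifs was searched. All 35 lengths fell in 80 to 200 nt and all 35 listed gene names differed, so neither limit left out any of the 35. None of the 35 shared an end with a reference intron, so leaving out such introns changed nothing either. Values of the 35 alone could not move under these settings, yet they are counted among the 29. The SD of the log10 ratios was 1.00, so the limit for that value was wide. For medians of reads, the 95% interval was taken from the ranked reads of the introns and is not a Poisson interval. It ran from 77 to 194 for the coding introns. For the 10 model changes it was wide, with 63 to 2034 reads around the median of 108.5. Such an interval is a limit for the median that treats introns as independent draws, and introns are not replicates. No paired analysis was possible because 1 library gave all the values.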

Other observations

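The in-frame intron of hrq1 overlapped another added intron on the other strand, the only overlapping pair among the 222. The second intron is classed as antisense to hrq1 (chromosome 1, 4116824 to 4117010, plus strand, 187 nt), encloses the first and has the same count, 61 reads. Whether the same reads were counted for both was not tested.

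A non-coding RNA on the other strand is annotated across 21 of the 35 coding-region introns (60%, Wilson 95% interval 43.6 to 74.4), across 678 of the 1292 annotated introns (52.5%) and across 32.1% of the other added introns. Among the latter, the share was 5.17% of the 58 introns classed as antisense to a gene and 40.5% of the 84 in UTR classes. A coding gene lay opposite the introns of mug108 (rga3) and ssr4 (SPBP23A10.17) and those listed for ufd2 (rho5) and dbp9 (dbp9 itself). No non-coding RNA is annotated on the other strand across any of these introns.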
